A study of Salmo salar with 64 samples.

Results

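The pituitary of female Atlantic salmon was compared between T2, the first sampling after the fish were moved to a long-light photoperiod, and T1, just before that change. The comparison took the 4 pituitary libraries of T2 and the 4 of T1, which are 8 of the 64 messenger RNA libraries of the series, and used each gene row of the count table, 81574 in all. Of these rows 31997 held enough counts to be tested. The T1 fish were brood stock on the earlier light regime, and the T2 fish were different animals from the same management group under long days. The study's methods give 2-week intervals for T2 to T4. They place T1 in mid-June and the light change in late June, without an exact interval from T1 to T2. No genotype, strain or agent is given for either group. No group was held on the earlier regime to T2, so the light and the elapsed time or season cannot be told apart, and the hour of sampling is not given in the sources used here. The other pituitary libraries (T3 and T4, 4 each) and the liver, ovary and brain libraries serve only to place the change from T1 to T2.

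The pituitary lies under the brain and releases peptide hormones from separate cell types: prolactin, growth hormone, somatolactin, thyrotropin, the gonadotropins Fsh and Lh, and the products of proopiomelanocortin. In fish the neurointermediate lobe holds the melanotropes, which make proopiomelanocortin, and the somatolactin cells, while prolactin cells fill the front of the gland. Day length reaches it in vertebrates through the clock and through signals of the hypothalamus and the neighbouring tissue, and long days are used in salmon tanks to bring on maturation. Each library here is a whole piece of tissue, so fewer cells of a type and less RNA per cell cannot be told apart.

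The 8 libraries held 24.8 to 29.0 M counts (M being 1e6), and levels below are counts per 1e6 counts of the scaled library total (CPM). Spearman correlations between libraries had a median of 0.979 within T1, 0.971 within T2 and 0.966 between the times. T2 replicate 2 stood farthest from the rest, at 82.6 on a first principal component that held 37.2% of the variance, where the T1 libraries lay between -53.4 and -16.1. Proopiomelanocortin (pomca) took 1.64% of that library's counts, against 5.99 to 14.5% in the other T2 libraries and 9.95 to 15.5% at T1. Prolactin (prl) took 0.0689% of the counts in T2 replicate 1 and 15.7% in T2 replicate 3. The share taken by single hormone genes thus varied widely among glands of the same time point.

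Between T1 and T2, 476 genes changed by more than 1 on the log2 scale at an adjusted p below 0.05 (edgeR's quasi-likelihood test with Benjamini-Hochberg adjustment, as for each adjusted p below), which is 1.49% of the genes tested. Of these 377 rose (1.18%) and 99 fell (0.309%), and in 472 the libraries of the 2 times did not overlap, as was so for 16.2% of the genes tested. By adjusted p alone 1621 genes passed (5.07%), 977 of them higher (3.05%) and 644 lower (2.01%). An unadjusted p under 0.05 was found in 8259 (25.8%), which is the share to set beside each such count of T2 against T1 below. The rises were of 2 kinds. 140 of them were genes held in the pituitary at under 1% of their mean CPM in the liver, which are described apart below, and 237 were not. With the 1 fallen gene under 1% of its ovary level also set apart, 335 called genes remained, 237 higher and 98 lower, of 31514 tested. When the genes under 1% were removed before the fit, 300 were called, 214 of them higher.

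Most of these 335 changes were moderate. Of the 237 rises 138 were below 1.5 on the log2 scale and 11 reached 3 or more, and of the 98 falls 58 were below 1.5 and 4 reached 3. The number of calls leaned on single libraries. It was 99, 191, 248 and 483 without T1 replicate 1, 2, 3 and 4 in turn. Without T2 replicate 1, 2, 3 and 4 in turn it was 851, 263, 253 and 180. Each of the 476 called genes kept its direction without T2 replicate 2, and 243 kept their call. In each of the 8 fits that left out 1 library 92 genes were called, 63 of them genes under 1% of liver or ovary and 29 others. Scaling by total counts alone moved the median of all genes up by 0.23 on the log2 scale, and 845 of 898 calls were then rises (94.1%, against 79.2%).

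**Figure D1:**
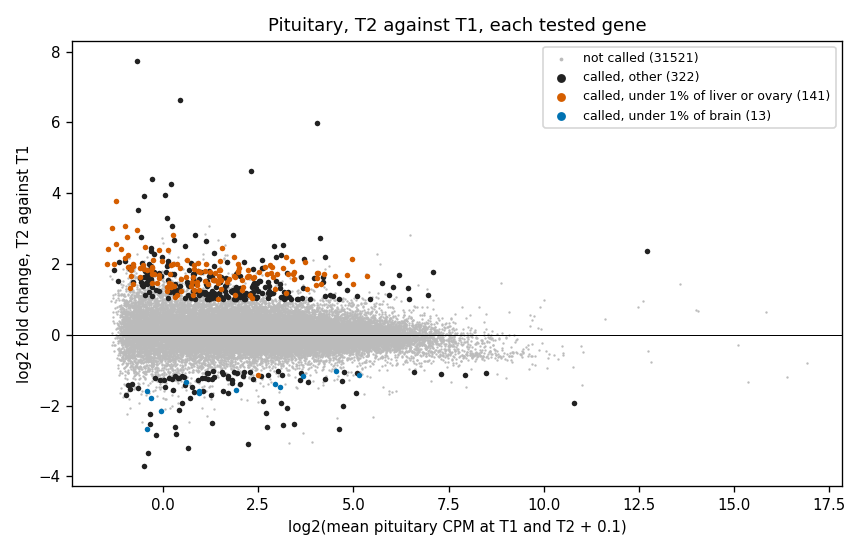
Log2 fold change of each tested pituitary gene at T2 against T1 (vertical axis) by the log2 of its mean CPM plus 0.1 (horizontal axis), with called genes as large points coloured by set. The 141 genes under 1% of liver or ovary lie above 0 but for 1, the 13 under 1% of brain lie below it, and the 322 others lie on both sides.

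LOC106610036, a gene with no name in the sources used here, had the highest mean level at T2 of the genes called. It stood at 2735, 1893, 2227 and 1863 CPM in T1 replicates 1 to 4 and at 16421, 11624, 10494 and 6046 CPM in the T2 libraries. Its log2 fold change was 2.36 (SE 0.33, adjusted p 0.00936), and it was called in each of the 8 fits without 1 library. All T2 libraries lay above all T1 libraries, and T3 and T4 libraries held 4522 to 16891 CPM. This gene was picked out for its level after its values were seen.

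Of the 12 largest rises among genes not listed as uncharacterized, those of LOC106612647, lrat and rergla came first. rergla, a small GTPase of the Ras family, stood at 0.949, 0.925, 1.2 and 0.412 CPM at T1 and at 4.35, 8.12, 6.52 and 5.48 CPM at T2 (log2 fold change 2.81, SE 0.30, adjusted p 0.00306). Its lowest T2 library held more than its highest T1 library by over 3 CPM, and it was called in each of the 8 fits. LOC106612647, described as a muscular LMNA-interacting protein-like gene, had 0 counts in the 4 T1 libraries and 17 to 40 counts in those of T2. Against a floor of 3 counts per library, its T2 level of 1.07, 0.557, 1.32 and 1.2 CPM was at least 8.3-fold higher. At T3 this gene was again at 0 in 3 of the 4 libraries.

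The other 9 of these rises were smaller, at 2.24 or less on the log2 scale. pcolce2b, an enhancer of procollagen processing, rose from 2.77, 1.76, 5.28 and 1.94 CPM to 20.8, 11.9, 10.5 and 12.8 CPM (log2 fold change 2.24, SE 0.37, adjusted p 0.0199). The FRAS1-like gene ID106585870, whose mammalian counterpart encodes a basement membrane protein, rose from between 0.702 and 1.05 CPM to between 2.59 and 3.24 CPM (1.77 on the log2 scale, SE 0.21, adjusted p 0.00463). dlk1, a Notch ligand-like membrane protein, rose from 2.35, 4.49, 5.39 and 5.36 CPM to 12.1, 20.8, 8.7 and 17.1 CPM. Its log2 fold change was 1.74 (SE 0.33, adjusted p 0.0275). The tetraspanin cd82 rose by 2.21 and the SH3-domain gene sh3tc2 by 1.86 on the log2 scale, both to T2 levels of at most 2.05 CPM. Of the 25 genes of the collagen and matrix list 0 were called by edgeR, around a median of 0.19, 9 had an unadjusted p under 0.05 and col5a2a alone passed the adjusted p, at 0.95 on the log2 scale.

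2 receptor genes were among the 12. nmur1a, a receptor for neuromedin U, went from 1.73, 2.92, 2.92 and 3.63 CPM to 7.37, 26.9, 5.72 and 11.3 CPM, a log2 fold change of 2.20 (SE 0.51, adjusted p 0.0483). The receptor LOC106581932, of the calcitonin gene-related peptide type 1 kind, rose from at most 0.537 CPM to between 0.976 and 1.52 CPM (1.74 on the log2 scale, SE 0.29, adjusted p 0.0164). The 2 remaining genes of the 12 were plekha4, with a pleckstrin homology domain, and the ubiquitin ligase rnf19a, at log2 fold changes of 2.04 and 1.88. Of the 12, the calls of rergla, LOC106612647 and ID106585870 alone held in each fit without 1 library. That of sh3tc2 was lost without T1 replicate 1 (adjusted p 0.0578), that of LOC106581932 without T1 replicate 2 or T2 replicate 4, and that of pcolce2b without T1 replicate 1 or 2 or T2 replicate 4. The other 5 and lrat were lost without 4 to 7 of the libraries, with log2 fold changes of 1.52 or more in each fit.

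Of the 12 largest falls among genes not listed as uncharacterized, those of mixl1 and gdnfb came first. mixl1, a paired-type homeobox factor, fell by 3.19 on the log2 scale (SE 0.49, adjusted p 0.0128), from 2.68, 1.06, 2.77 and 4.2 CPM to 0.311, 0.229, 0.132 and 0.501 CPM. gdnfb, a neurotrophic factor of the GDNF family, fell by 2.84 (SE 0.49, adjusted p 0.0183), from 1.24, 0.925, 2.32 and 0.989 CPM to 0.355, 0.0983, 0.0993 and 0.231 CPM. In both genes the groups were well apart, and both calls were lost without T1 replicate 1 (adjusted p 0.0512 and 0.0589), that of gdnfb also without T2 replicate 4 (0.0529).

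LOC106583002, described as the progenitor cell antigen CD34, fell by 2.20 on the log2 scale (SE 0.40, adjusted p 0.0263), from between 6.89 and 14.5 CPM to between 1.2 and 4.04 CPM. LOC106568177, a neuropeptide FF receptor 1-like gene, fell by 2.14 (SE 0.40, adjusted p 0.0241), from 1.82, 1.11, 2.55 and 2.64 CPM to 0.222, 0.721, 0.529 and 0.309 CPM. LOC106581700, an inactive dipeptidyl peptidase 10-like gene, fell by 1.92 (SE 0.43, adjusted p 0.043), from at least 9.06 CPM to at most 5.62 CPM. ostn, which encodes the secreted peptide osteocrin, fell by 1.42 (SE 0.34, adjusted p 0.0449). These 4 calls were lost without 4 to 7 of the 8 libraries. Of the other 6 of the 12 largest falls, epdl2 and dhrs3 follow, and slc13a3, zic2a, nfm and crp1 belong to the genes under 1% of brain, described below.

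Among abundant genes epdl2, an ependymin-like secreted protein, fell furthest. Its level was 3506, 3383, 2153 and 2165 CPM at T1 and 1091, 213, 979 and 656 CPM at T2 (log2 fold change -1.93, SE 0.45, adjusted p 0.044). The call was lost without any 1 of the T1 libraries and without T2 replicate 3 or 4 (adjusted p 0.0553 to 0.122), and the log2 fold change lay between -2.18 and -1.62 over the 8 fits. scg2b, which encodes a secretogranin of hormone granules, fell from 561, 459.8, 367 and 552 CPM to 319, 128, 244 and 227 CPM (-1.07, SE 0.25, adjusted p 0.0446). In 7 of the 8 fits without 1 library it was not called (largest adjusted p 0.128), and without T2 replicate 2 the change was -0.88. T2 replicate 2 was the lowest library for both genes, as it was for pomca, and the part of the gland's makeup in these falls was not tested.

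**Figure D2:**
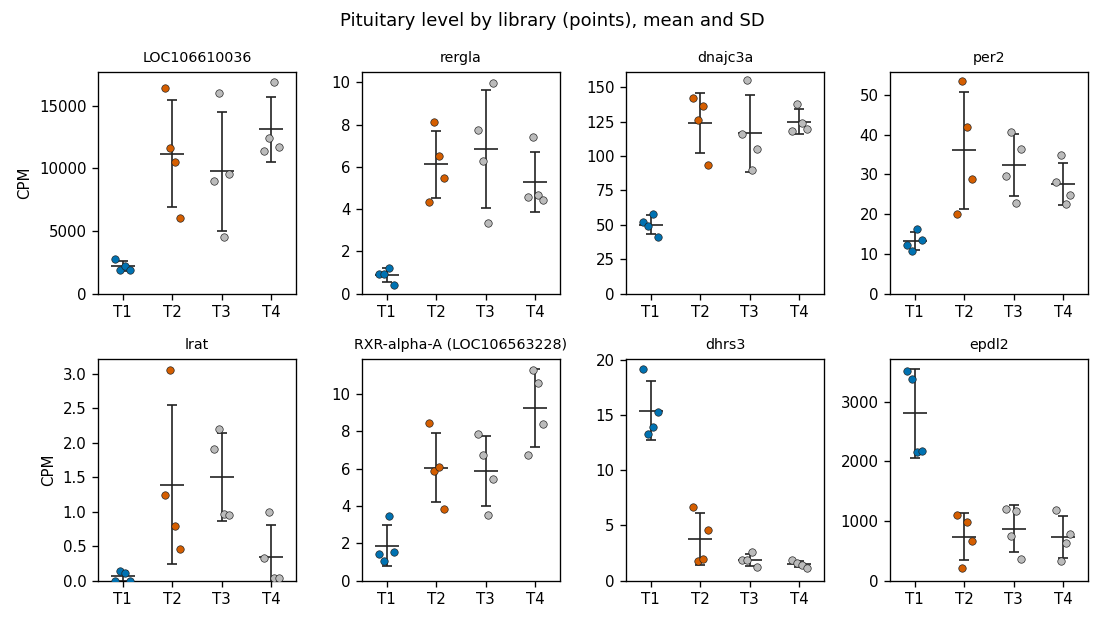
Level in CPM (vertical axis, from 0) of 8 genes in each pituitary library at T1 to T4 (horizontal axis), with points for libraries and bars for the mean and SD of 4. LOC106610036, rergla, dnajc3a, per2, lrat and LOC106563228 were higher in each T2 library than in any T1 library, and dhrs3 and epdl2 were lower.

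Retinoid genes changed in both directions. Retinol is stored as an ester made by Lrat, retinaldehyde is turned back to retinol by Dhrs3, and retinoic acid acts through receptors that pair with an Rxr. Of 21 such genes tested and not under 1% of liver, lrat and the RXR-alpha-A gene LOC106563228 rose and dhrs3 fell, against 1.49% called over all genes, and the list median was 0.25.

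lrat was near absent at T1, with 0 to 3 counts per library, and held 12 to 93 counts at T2. Its levels were 0, 0.139, 0.112 and 0 CPM and then 1.24, 3.05, 0.794 and 0.463 CPM, and the ratio of the summed levels was 23.2 (95% exact interval 10.4 to 64.2, for counting error only). The fitted adjusted p was 0.0293, and it lay between 0.0508 and 0.0936 without any 1 of the T1 libraries. dhrs3 went the other way, from 19.2, 13.3, 13.9 and 15.3 CPM to 6.7, 1.74, 1.92 and 4.55 CPM (log2 fold change -2.07, SE 0.41, adjusted p 0.0312). LOC106563228 rose from 1.44, 1.06, 3.48 and 1.52 CPM to 8.43, 5.86, 6.09 and 3.86 CPM (1.67 on the log2 scale, SE 0.37, adjusted p 0.0387). In each of the 3 genes the groups did not overlap. The call of dhrs3 was lost without T1 replicate 1, 2 or 3 or T2 replicate 2, 3 or 4 (adjusted p up to 0.0936), and that of LOC106563228 without T1 replicate 1, 2 or 4 or T2 replicate 2, 3 or 4 (up to 0.119).

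crabp1a, a carrier of retinoic acid within the cell, came close to a call. It stood at 15.8, 19.5, 29.1 and 12 CPM at T1 and 37.7, 109, 59.9 and 42 CPM at T2 (1.71 on the log2 scale, SE 0.40, adjusted p 0.0513). rbp4, the retinol carrier of blood that the liver makes, was called at 1.05, but it was held at under 1% of its liver level and is counted with the liver genes below. Its mean was 3.24 CPM at T1, 6.68 CPM at T2 and 4.24 CPM at T4.

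In the vertebrate clock, Clock and Arntl (Bmal) proteins switch on the period and cryptochrome genes, whose products then hold them back, and Ror receptors and PAR factors such as Tef form further arms. Of 20 clock genes tested per2 alone was called, and 5 passed the adjusted p without the fold threshold, all higher, where 3.05% of all genes did so. The list median was 0.28 on the log2 scale, and it was 0.23 without T2 replicate 2, where 2 of the 20 passed.

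per2, a period gene that light can induce in fish, stood at 12.3, 10.8, 16.2 and 13.4 CPM at T1 and at 20, 53.5, 42 and 28.9 CPM at T2 (log2 fold change 1.46, SE 0.29, adjusted p 0.0315). Its call was lost without any T1 library and without T2 replicate 3 or 4, at adjusted p values from 0.0543 to 0.101, and the log2 fold change was 1.20 or more in each of the 8 fits. The other 4 that passed were tef (0.40, SE 0.09), rorca (0.67, SE 0.14), arntl1a (0.44, SE 0.09) and clocka (0.55, SE 0.13), with adjusted p values of 0.0339, 0.0308, 0.0289 and 0.0411. The levels of arntl1a were 22.3 to 24.3 CPM at T1 and 28.3 to 35.8 CPM at T2.

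The remaining clock genes did not pass. A second arntl1 copy, LOC106609509, stood at 20.2 to 31.2 CPM at T1 and 29.3 to 69.5 CPM at T2 (0.99, SE 0.26, adjusted p 0.0619). Log2 fold changes were 0.58 for npas2, 0.46 for per3, 0.35 for the cryptochrome LOC106561609, 0.31 for bmal2, 0.25 for cry5, 0.24 for roraa, 0.10 for ciarta and 0.03 for bhlhe41. They were -0.10 for dbpb, -0.13 for bhlhe40 and for LOC100380463, -0.14 for fbxl3a, -0.19 for per1b and -0.22 for nfil3. Scaling by total counts turned the sign of 6 of these, namely those below 0.

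The thyroid and photoperiod genes gave little. Of 11 tested 0 were called by edgeR, 2 had an unadjusted p under 0.05 and eya1, a coactivator whose relative eya3 marks long days in mammals and birds, alone passed the adjusted p (0.71, SE 0.12, adjusted p 0.0158). eya1 was at 12.5, 15.6, 17.1 and 17.2 CPM at T1 and at 22.8, 27.8, 24.8 and 26.1 CPM at T2. dio2, the enzyme that activates thyroid hormone, had a log2 fold change of 0.82 (adjusted p 0.292).

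Among endoplasmic reticulum genes dnajc3a rose. dnajc3a, a chaperone partner that also restrains the stress kinase Perk, rose from 52.2, 49.1, 58.1 and 41.3 CPM to 142, 126, 136 and 93.1 CPM (log2 fold change 1.31, SE 0.15, adjusted p 0.00373). It was called in each of the 8 fits without 1 library. The second dnajc3 gene, dnajc3b, stood at 52.8, 48.8, 41.9 and 41.1 CPM and then at 55.2, 54.7, 51.7 and 44.7 CPM (0.17, SE 0.11, adjusted p 0.346). Of the 28 genes of this kind tested dnajc3a was the 1 called, and 4 passed the adjusted p upwards and 3 downwards (1.49%, 3.05% and 2.01% over all genes), around a list median of 0.10. The lectin chaperone canx (0.35), the disulfide isomerase pdia3 (0.58) and the stress sensor atf6 (0.38) were higher, and atf4 (-0.44), its target asns (-0.49) and derl3 (-0.42) were lower.

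Of 29 cell cycle genes 28 had a positive log2 fold change and the median was 0.57, where 16090 of the 31997 genes tested were positive and the median was 0. rrm2, the ribonucleotide reductase subunit made in S phase, rose from 6.69, 7.36, 5.84 and 7.01 CPM to 12.5, 16.4, 12.4 and 12.7 CPM (1.02, SE 0.13, adjusted p 0.00571). mki67, a marker of dividing cells, rose from 0.454, 0.278, 0.3 and 0.412 CPM to 1.29, 1.05, 0.926 and 0.81 CPM (1.48, SE 0.30, adjusted p 0.0289), in 1 of its 2 rows, the other being at 0. Besides these 2 calls, mcm2 (0.83), mcm3 (0.85), mcm6 (0.44) and mcm7 (0.57) of the replication helicase, tyms (0.83) and LOC100380341 (0.62) passed the adjusted p.

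The summed level of the cell cycle list was 163 to 217 CPM at T1 and 243 to 308 CPM at T2, without overlap. Without T2 replicate 2 the median was 0.52 and 27 of 29 were positive, while 3 passed the adjusted p. The call of mki67 was lost without T1 replicate 1, 2 or 3 or T2 replicate 2, 3 or 4 (adjusted p up to 0.0778). That of rrm2 was lost without T1 replicate 3 or T2 replicate 2, where its log2 fold change was 0.91 or more and its adjusted p stayed at or below 0.0194.

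All 43 genes of the cytosolic ribosome tested had a negative log2 fold change, with a median of -0.56 and a range from -0.73 to -0.04, and 40 had an unadjusted p under 0.05 (25.8% of all genes). The groups of 19 of the 43 did not overlap (16.2% over all genes). 0 were called by edgeR, and rpl11 (-0.73), rpl13 (-0.68) and rpl3 (-0.59) passed the adjusted p. rpl11 stood at 270.5, 281, 290.0 and 285 CPM at T1 and at 204, 141, 158 and 172 CPM at T2. The summed level was 16089 to 19617 CPM at T1 and 9505 to 16023 CPM at T2. Scaled by total counts alone the list median was -0.36 and 1 of the 43 was positive, and without T2 replicate 2 the median was -0.45.

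Of 19 immediate early genes tested 16 had a negative log2 fold change, around a median of -0.44. The groups of 3 did not overlap, which is near the share of 16.2% over all genes, and 9 had an unadjusted p under 0.05. By edgeR 0 were called, and btg2 alone passed the adjusted p (-0.98, SE 0.23). dusp2, a phosphatase induced within minutes of a stimulus, stood at 38.9, 5.51, 18 and 26.3 CPM at T1 and 5.81, 1.47, 1.89 and 3.82 CPM at T2 (-2.79, SE 0.66, adjusted p 0.0535). The T1 libraries were spread widely, and T1 replicate 2 lay within the T2 range. Outside the lists, insm2, a zinc finger factor of endocrine cells, and vgf, a precursor of secreted neuropeptides, were also widely spread at T1, with log2 fold changes of -3.03 (adjusted p 0.0635) and -2.35 (adjusted p 0.0608). In both, T1 replicate 2 was the lowest T1 library, at 5.83 and 9.16 CPM.

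**Figure D3:**
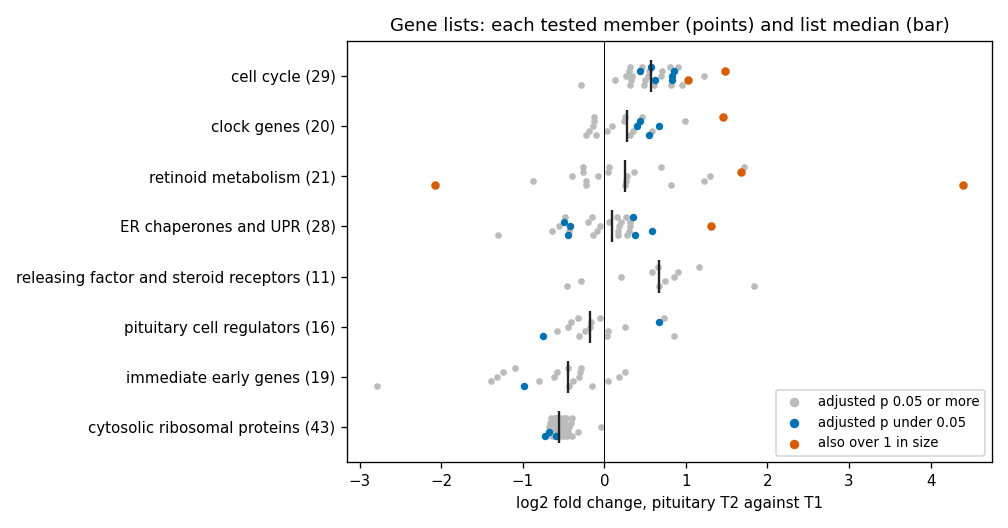
Log2 fold change at T2 against T1 (horizontal axis) of each tested member of 8 gene lists (points; the bar is the median, the number of genes is in parentheses), coloured by whether the adjusted p was under 0.05 and the change over 1 in size. The cell cycle median is 0.57, that of the ribosomal proteins is -0.56, and 7 genes in the 8 lists were called.

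Regulators of the pituitary cell types gave no call. Of 16 tested 0 were called by edgeR and 7 had an unadjusted p under 0.05, and their median was -0.17. zbtb20, needed in mice for prolactin cells, was higher (0.67, SE 0.14, adjusted p 0.0312), and ascl1a, a neuroendocrine bHLH factor, was lower (-0.75, SE 0.16, adjusted p 0.0315). nr5a1b, a steroidogenic factor 1 gene of gonadotropes, had a log2 fold change of 0.86 (adjusted p 0.177).

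Of 11 receptors for releasing factors and steroids tested 0 were called by edgeR, 0 passed the adjusted p and 6 had an unadjusted p under 0.05. Their median was 0.67, with 9 positive, and the largest was the progesterone receptor pgr (1.83, adjusted p 0.0557, in 1 of its rows). The oestrogen receptors esr1 and esr2a had log2 fold changes of 0.90 and 0.67. A further list held pituitary candidates that the study names, as far as rows could be matched, and glha1. Of its 9 genes tested 0 were called by edgeR, 4 had an unadjusted p under 0.05, all 9 were positive and their median was 0.94. The study picked its candidates using the same libraries, so their direction is not independent evidence.

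Of 14 cholesterol synthesis genes, 9 steroid synthesis genes, 9 hexosamine and nucleotide sugar genes, 8 heat shock genes and 20 interferon response genes, 0 were called by edgeR, with medians of 0.20, -0.12, 0.11, -0.20 and -0.14. In these lists 4, 3, 2, 3 and 5 genes had an unadjusted p under 0.05, where 25.8% of all genes did. gfpt1 (0.47), hspa1b (-0.91), psmb9a (-0.62) and psmb9-a (-0.38) passed the adjusted p. Of 27 channel and secretion genes scg2b alone was called, around a median of 0.07.

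None of the 9 hormone genes was called by edgeR, and 3 had an unadjusted p under 0.05. Somatolactin (smtlb) came closest, from 3976, 3295, 1652 and 3000.4 CPM at T1 to 1469, 378, 1467 and 1109 CPM at T2. Its log2 fold change was -1.42 (SE 0.42, adjusted p 0.0749), and of these 9 genes it was the 1 whose groups did not overlap. Other abundant genes outside this list were picked after their values were seen. Of these LOC100136491 was lower without overlap, from at least 41467 CPM to at most 38680.2 CPM (-1.34, SE 0.53, adjusted p 0.148). The groups of LOC100169856, LOC100510784 and LOC106607462 overlapped. pomca stood at 180412, 168136, 105104 and 172854 CPM at T1 and at 160064, 13501, 57587 and 126224 CPM at T2 (-0.80, SE 0.69, adjusted p 0.49). The T2 libraries spread over more than a factor of 10, with replicate 2 lowest.

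Prolactin varied widely. prl stood at 48075, 50664, 78406 and 6415 CPM at T1 and at 761, 97571, 150607 and 37069 CPM at T2 (0.65, SE 1.16, adjusted p 0.759). The lowest library of each time lay far below the others. Growth hormone (LOC100136588, listed with the synonym gh) stood at 12979, 10571, 17249.6 and 11349 CPM and then at 19382, 33514, 8923 and 21364 CPM (0.68, SE 0.40, adjusted p 0.316).

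The thyrotropin and gonadotropin subunits had higher means at T2, with overlap in each. tshba, the thyrotropin beta subunit, stood at 6141, 4607, 13858 and 2025 CPM at T1 and at 26699.5, 13995, 23147 and 7258 CPM at T2 (1.42, SE 0.60, adjusted p 0.169). lhb stood at 194, 388, 349 and 74.4 CPM and then at 286, 1237, 1046 and 189.8 CPM (1.46, SE 0.72, adjusted p 0.247). The shared alpha subunit glha2 stood at 3560, 4608, 6587 and 2320.3 CPM and then at 9948, 9419, 8483 and 4879.7 CPM (0.94, SE 0.36, adjusted p 0.133). 3 of its 4 T2 libraries lay above each T1 library.

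fshb gave 316, 765, 858 and 879 CPM at T1 and 648, 3049, 411 and 714 CPM at T2 (0.78, SE 0.65, adjusted p 0.477). The difference came from T2 replicate 2, without which it was -0.25. The second alpha subunit, glha1, had a log2 fold change of 0.45 (adjusted p 0.422), and 0.01 without that library. The SEs of the 9 hormone genes were 0.33 to 1.16 on the log2 scale.

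**Figure D4:**
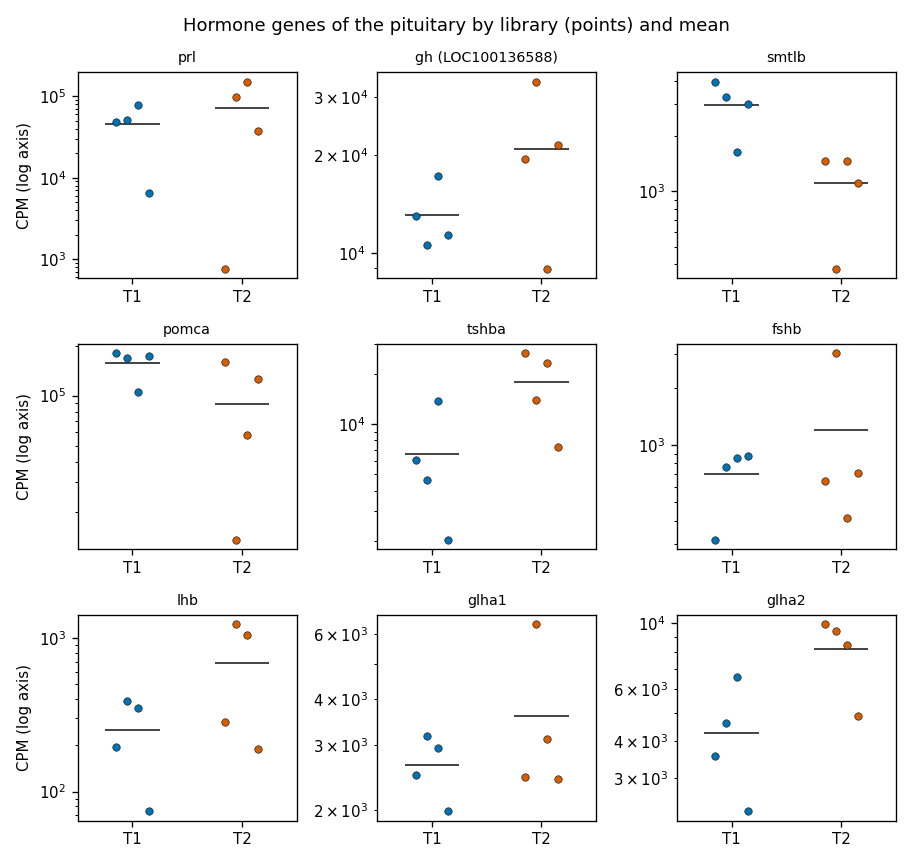
Level in CPM (vertical log axis) of 9 hormone genes in each pituitary library at T1 and T2 (points), with a bar at the mean of 4. smtlb is the only gene whose groups do not overlap, prl ranges from 761 to 150607 CPM within T2, and pomca falls to 13501 CPM in 1 T2 library.

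Genes under 1% of their liver level are described apart, since so low a level can be carry-over from another tissue. They were 282 of the genes tested, and 140 of them were called (against 1.49% of all genes), each higher at T2. They include the plasma proteins transferrin (tfa), albumin (alb2) and apolipoprotein A-II (apoa2). tfa stood at 21, 18.5, 14 and 16.1 CPM at T1 and at 55, 43.9, 45.4 and 41.7 CPM at T2 (1.43, SE 0.14, adjusted p 0.00201). alb2 rose from 15.6, 10.3, 7.68 and 9.97 CPM to 42.2, 30.2, 31.8 and 34.1 CPM, and apoa2 from between 11.9 and 15.3 CPM to between 35.6 and 57.5 CPM. The count filter could be met by the libraries of either time alone. Genes of the liver set, like those of the ovary and brain sets below, may thus have entered through the time at which they were higher. Over the liver set the median gene's share of its liver level was 2.96 times as large at T2 as at T1.

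As a share of their own mean level in the liver, these genes had a median of 0.0935, 0.0972, 0.0858 and 0.091% in the T1 pituitary libraries and of 0.305, 0.313, 0.254 and 0.254% in those of T2. The share was 0.157 to 0.206% at T3 and 0.0928 to 0.106% at T4. In the ovary it did not follow this course, at 0.204 to 0.246% at T1 and 0.191 to 0.23% at T2, and in the brain it was 0.0759 to 0.332% and 0.191 to 0.261%. All 15 liver markers tested were positive and 11 were called, and their summed level was 90.6 to 130.0 CPM at T1 and 262 to 383 CPM at T2. Without T2 replicate 2, tfa, alb2 and apoa2 had log2 fold changes of 1.45, 1.73 and 1.77.

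Genes under 1% of their ovary level were 207, with 1 called, LOC106577634, which was lower. Their median share of the ovary level was 0.278 to 0.345% at T1 and 0.367 to 0.504% at T2, without overlap, and 155 were positive. Markers of oocytes and ovary gave 0 calls by edgeR among 11 tested, 0 with an unadjusted p under 0.05, and summed levels of 60.4 to 80.3 and 75.5 to 82.6 CPM. All 11 were positive, with a median of 0.26 on the log2 scale, and 9 were without T2 replicate 2, with a median of 0.17.

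A set in the other direction appeared among genes under 1% of their brain level. Of 130 tested 13 were called (0.309% of all genes were called lower), all lower at T2, from -2.66 to -1.02 on the log2 scale. They include the myelin gene mbpa, which fell from 15.8, 9.86, 10.2 and 8.37 CPM to 3.55, 5.24, 5.49 and 2.47 CPM (-1.39, SE 0.28, adjusted p 0.0293), and the neurofilament gene nfm (-1.58, SE 0.31, adjusted p 0.0268). slc13a3, a dicarboxylate transporter, fell from between 0.949 and 1.28 CPM to between 0.0444 and 0.36 CPM (-2.66, SE 0.48, adjusted p 0.022), and the zinc finger gene zic2a by 1.79. crp1 fell from 9.08, 4.4, 3.37 and 5.03 CPM to 1.55, 2.39, 1.95 and 1.47 CPM (-1.55, SE 0.31, adjusted p 0.0289). The calls of slc13a3 and mbpa were lost without T1 replicate 1, 2 or 3 or T2 replicate 4, those of zic2a and nfm without 5 or 6 of the libraries, and that of crp1 without T1 replicate 1 or 2 or T2 replicate 3 or 4.

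The summed level of the brain set was 585 to 682 CPM at T1 and 172, 765, 275 and 292 CPM at T2. T2 replicate 2 thus lay above T1 and the other 3 T2 libraries below it, and 12 of the set were called without that library. Myelin and glia markers gave 1 call in 9, neuron markers 0 in 6 by edgeR with 3 at an unadjusted p under 0.05, and their summed levels overlapped between the times. Both lists went in both directions. Of the myelin and glia markers 5 were positive and 4 negative (median 0.07), and of the neuron markers 3 and 3 (median -0.11). Red cell, leukocyte, endothelial, muscle and neurohypophysis markers gave 0 calls by edgeR, with 1, 0, 3, 0 and 0 at an unadjusted p under 0.05. What part stray tissue at dissection has in the liver and brain sets was not tested.

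**Figure D5:**
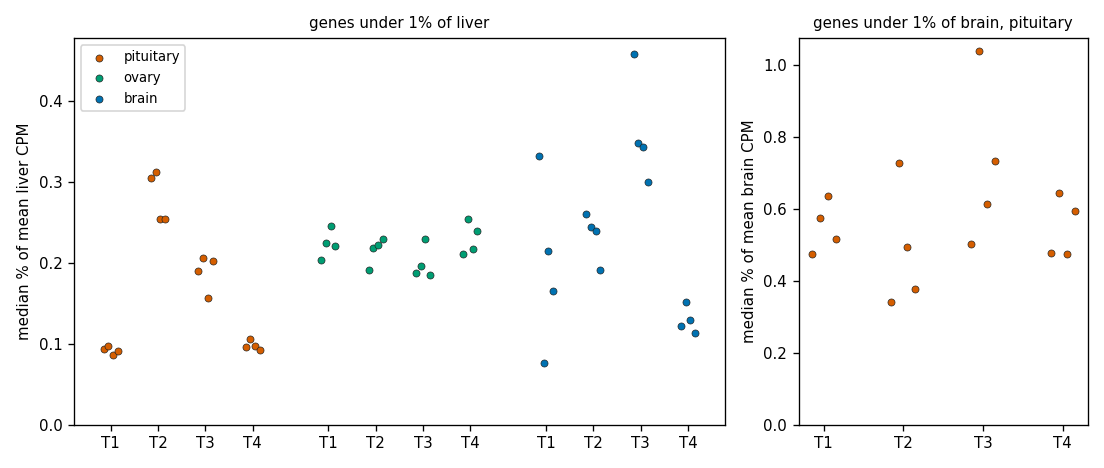
Median share, in percent, of the liver level over 282 genes (left, by tissue and time) and of the brain level over 130 genes (right, pituitary only), with 1 point per library. On the left the pituitary goes from at most 0.0972% at T1 to at least 0.254% at T2 and back to at most 0.106% at T4, and on the right the T1 and T2 libraries overlap.

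The later samplings have their own 4 fish each. T2 differed from T4 mainly in the liver set, and from T3 in few genes, most of them of the ovary set. In a fit over the 16 pituitary libraries 127 of 33459 genes (0.38%) differed between T2 and T4, 125 of them higher at T2 (0.374%), and 114 of the 127 were genes under 1% of liver. Of the 335 called genes outside the liver and ovary sets, 4 differed between T2 and T4 (plekha4, LOC106568177, slc13a3 and si:dkey-97a13.12). plekha4 was 2.00 higher at T2 on the log2 scale (adjusted p 0.0382), and LOC106568177 was 3.79 higher (adjusted p 0.0139), with 0 to 0.0736 CPM left at T4. Between T2 and T3 18 genes differed (0.0538%), 14 of them genes under 1% of ovary, and 0 of the 335 were among these. With the 8 libraries of T2 and T3 alone edgeR called 0. In the fit over 16 libraries 1389 of 33459 genes had an unadjusted p under 0.05 between T2 and T3, and 1467 had it between T2 and T4. dnajc3a, with 118 to 138 CPM at T4, and LOC106610036 had differences between T2 and T4 of -0.01 and -0.23.

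LOC106605265, a retinoic acid receptor beta-like gene picked after its values were seen, was another that differed between T2 and T4. It stood at 1.2, 0.972, 1.91 and 0.742 CPM at T1, 1.78, 3.9, 1.46 and 1.35 CPM at T2 and 0.561, 0.331, 0.233 and 0.431 CPM at T4. The difference between T2 and T4 was 2.44 on the log2 scale (adjusted p 0.00869), while that between T2 and T1 was 0.82 (adjusted p 0.239). The comparisons of T2 share its 4 libraries.

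The pituitary change was also tested against the change in the liver and in the ovary between the same times. The test treated libraries as independent, although the tissues of a time point came from a shared set of fish. The pituitary change differed from that of the liver by more than 1 on the log2 scale at an adjusted p under 0.05 in 3515 of 36619 genes (9.6%). From that of the ovary it differed so in 200 (0.546%). With a block for time point and library number these counts were 3495 and 194. By adjusted p alone, without that block, they were 6848 and 228. Of the 335 called pituitary genes outside the liver and ovary sets, 59 differed from the liver and 32 from the ovary. In the liver 151 of the 335 were tested and 44 called between T1 and T2, 39 in the same direction, where 14.4% of genes were called. In the ovary 210 were tested and 14 called, all in the same direction, where 0.954% were called. The pituitary libraries enter both the calls and these differences, so the shares are a description.

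Of the genes above, dhrs3 had a pituitary change 2.16 below that of the liver (adjusted p 0.0181) and 2.91 below that of the ovary (adjusted p 0.0147). Its own log2 fold changes there were 0.14 and 0.91. LOC106610036 rose by 1.79 more than in the liver (adjusted p 0.0136) and 3.11 more than in the ovary (adjusted p 0.00224). Its own log2 fold changes there were 0.61 and -0.7. The 9 hormone genes also moved together there: all 9 were positive in the liver (median 0.67) and 0 in the ovary (median -1.19). What part carry-over from the pituitary into those tissues has in the differences was not tested. dnajc3a rose by 2.07 in the liver, where its difference from the pituitary did not pass (-0.71, adjusted p 0.086), and by 1.55 more in the pituitary than in the ovary (adjusted p 0.00597).

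Some clock genes changed differently in the liver by adjusted p alone, as 6848 of 36619 genes did. The change of arntl1a was 0.98 higher in the pituitary than in the liver (adjusted p 2.04e-05) and 0.59 higher than in the ovary (adjusted p 0.0383), against a liver change of -0.50. clocka differed from the liver by 0.94 (adjusted p 0.00304), per3 by 1.68 (adjusted p 0.00118) and rorca by 0.91 (adjusted p 0.0362). per2 rose in the liver by 0.62 (adjusted p 0.00395), and its pituitary change was 0.88 larger than that (adjusted p 0.0546) and 1.45 larger than in the ovary (adjusted p 0.0344). Of 19 clock genes tested in the liver 2 passed the adjusted p upwards and 5 downwards, where 33.8% of the genes tested there passed, and of 20 in the ovary 0 passed by edgeR, where 4.59% did.

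The cytosolic ribosomal protein list had a median of -0.56 in the pituitary, -1.05 in the liver, where 42 of 43 passed the adjusted p, and -0.07 in the ovary. Cell cycle genes had medians of 0.57 in the pituitary, 1.09 in the liver and -0.05 in the ovary. mcm2 rose by 1.11 more in the pituitary than in the ovary (adjusted p 0.00782) and by 0.75 less than in the liver (adjusted p 0.0175). As lists, the differences between tissues were not tested.

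Among uncharacterized genes the largest rises were LOC106572976 and LOC106587407. LOC106587407 stood at 0.413, 0.555, 0.412 and 0.659 CPM at T1 and at 1.07, 41, 44.7 and 42.6 CPM at T2 (log2 fold change 5.99, SE 1.11, adjusted p 0.0314). At T3 the 4 libraries held 0.62 to 1.09 CPM, and at T4 they held 0.481, 0.957, 42.3 and 37.8 CPM. In 7 of the 8 fits without 1 library it was not called (adjusted p 0.0504 to 0.0984). Libraries of this gene thus lay either at 1.09 CPM or below or at 37.8 CPM or above. LOC106572976 had at most 1 count in a T1 library and 47 to 89 counts in the T2 ones, a ratio of the summed levels of 121 (95% exact interval 33.2 to 1004, for counting error only). The uncharacterized genes that fell furthest were LOC106564870 (-3.71, SE 0.61, adjusted p 0.0163) and LOC106612476 (-3.33, SE 0.81, adjusted p 0.0475). LOC106612476 was not called in 7 of the 8 fits either (adjusted p 0.0761 to 0.122), and both genes were called without T2 replicate 1.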

How the data were processed

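Messenger RNA of brain, pituitary, ovary and liver was sequenced from 4 biological replicates (different fish) at each of 4 time points, 64 libraries. The authors aligned reads with TopHat2 2.1.1 to the ICSASG_v2 assembly, used SAMtools 1.4, and counted unique reads on exons with HTSeq 0.7.2 with reverse strand. They deposited counts for 81574 entries, and log2 values that equal log2(CPM + 1) of those counts to within 3.7e-05. The brain libraries, which the study left out for disagreement among replicates, were used only for the genes under 1% of brain and for the share of the liver set in the brain.

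Pituitary T2 and T1 were compared on the deposited counts with edgeR 4.0.16 in R 4.3.3 (TMM scaling, its expression filter, robust quasi-likelihood F test). Calls needed both an adjusted p (Benjamini-Hochberg) under 0.05 and a log2 fold change over 1 in size. SE is the log2 fold change over the root of F. Levels are CPM on TMM-scaled totals of the 16 pituitary libraries. Genes under 1% were marked by their mean plain CPM in the pituitary at T1 and T2, set against that in liver, ovary or brain over all time points. The 8 libraries compared thus enter the marking. T2 was set against T3 and T4 in a fit of the 16 pituitary libraries, and against the liver and ovary changes by interaction terms. limma 3.58.1 and DESeq2 1.42.0 served as alternatives. Intervals of count ratios cover counting error only.

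Genes named are the 12 largest rises and falls among called, named genes with at least 1 CPM in the higher group and no overlap, called list members, hormone and clock genes, 5 genes of the set under 1% with the highest levels and 2 uncharacterized genes in each direction; others were picked after their values were seen. The members and lists were chosen with earlier results of these data known. Symbols came from RefSeq (Ssal_v3.1), and some descriptions from the study's supplementary tables. Same-numbered fish were not paired by the labels. Scripts were tested on simulated data.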

Additional observations from a re-analysis of the deposited data

Results flagged for a closer look

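In 7 of 123 groups of 4 libraries 1 library lay far from the other 3, where chance gives about 1 group in 20. At T1 these were LOC106564870 in replicate 3 (2.32 CPM against 0.659 to 0.925), ostn in replicate 1 (2.85 CPM against 1.71 to 1.85) and pomca in replicate 3 (105104 CPM against 168136 to 180412). At T2 they were LOC106587407 in replicate 1 (1.07 CPM against 41.0 to 44.7), LOC106605687 in replicate 1 (86.1 CPM against 53.2 to 56.4), fshb in replicate 2 (3049 CPM against 411 to 714) and rrm2 in replicate 2 (16.4 CPM against 12.4 to 12.7).

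Of 69 named genes 17 had a pituitary change that differed from that of the liver, and 9 from that of the ovary, by more than 1 on the log2 scale at an adjusted p under 0.05 (edgeR's interaction test with Benjamini-Hochberg adjustment over all genes). Over all genes tested the shares were 9.6% for the liver and 0.546% for the ovary. Of the 69 genes 41 were called in the pituitary. The pituitary libraries enter both that choice and these differences, so the counts are a description. On the log2 scale, the pituitary change was above that of the liver by 4.82 for lrat, 2.52 for pcolce2b, 6.86 for LOC106572976, 1.25 for LOC106563228, 1.28 for LOC106609509, 1.68 for per3 and 1.42 for roraa. The difference from the liver was -5.56 for LOC106564870, -2.16 for dhrs3, -2.65 for epdl2, -2.57 for nfm, -1.75 for scg2b and -2.22 for smtlb. Against the ovary it was -2.91 for dhrs3, -3.04 for mixl1, 1.55 for dnajc3a, 2.17 for glha2 and 1.45 for per2. What part carry-over from the pituitary into liver or ovary has in the values of smtlb, epdl2 and glha2 was not tested.

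Of the 5 genes under 1% of liver or ovary with the highest levels, 4 differed from both tissues, and LOC100136426 did not pass against the liver (adjusted p 0.0719) or the ovary (0.125). The difference was 1.76 from the liver and 1.85 from the ovary for LOC106605687, 2.99 and 1.74 for alb2, 1.88 and 1.6 for apoa2, and 1.45 and 1.19 for tfa.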

How the results depend on the processing

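The count of 476 genes between T1 and T2 was 871 by DESeq2, 904 by edgeR's exact test, 1621 by adjusted p alone and 898 with total counts only. It was 300 with genes under 1% of liver or ovary left out, which held 141 of the 476 calls. It was 288 with brain included, where the genes left out held 154 of them. The cause of the shifts beyond this was not tested. limma-trend, RLE scaling, no count filter, the 16 pituitary libraries and a fit without robust estimation gave 351 to 551. Leaving out 1 library gave 99 (T1 replicate 1) to 851 (T2 replicate 1). With replicate number as a block it was 472, and of the named genes 4 calls were lost (epdl2, LOC106581700, LOC106583002, LOC100136426) and 2 gained (lhb at 1.30, tshba at 1.59). Deviations of same-numbered libraries correlated at 0.165, -0.0485, 0.14 and 0.193. The T1 and T2 fish were different animals, so the numbers pair no fish within the pituitary. Whether they mark anything else is not known. Total counts only, no robust estimation and brain included were chosen after seeing the data.

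T2 against T3, 18 genes, gave 0 in the 8 libraries alone, 10 with the replicate block and 2 (without T3 replicate 4) to 12 (without T2 replicate 4) without 1 library. Against T4 the 127 genes became 89 to 133. The 3515 differences from the liver became 6848 by adjusted p alone and 2792 to 4266 without 1 fish number. The 200 from the ovary became 112, 127, 117 and 129 without T1 replicate 1, T1 replicate 3, T2 replicate 2 and T2 replicate 4, and 303 without T2 replicate 1. Of the genes under 1%, 141 were called, and 153 at a limit of 5%. The 41 called named genes kept their sign in each alternative run, and 10 were called in each fit without 1 library.

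Some uncalled genes turned sign. With limma-trend, log2 fold changes were 0.09 for LOC100380463, 0.06 for bhlhe40, 0.10 for dbpb, 0.08 for fbxl3a, 0.03 for per1b and -0.16 for prl. With total counts only they were 0.10 for LOC100380463, 0.06 for bhlhe40, 0.11 for dbpb, 0.09 for fbxl3a, 0.05 for nfil3 and 0.03 for per1b. Without 1 library they ranged from -0.32 to 0.02 for bhlhe40 (above 0 without T2 replicate 2), -0.13 to 0.13 for bhlhe41 (below 0 without T1 replicate 2 or 4 or T2 replicate 3), -0.25 to 1.07 for fshb (below 0 without T2 replicate 2) and -0.02 to 1.05 for prl (below 0 without T2 replicate 3).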

Other observations

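Other genes picked after their values were seen rose without overlap. egfra, the receptor for epidermal growth factor, stood at 2.72, 1.62, 4.34 and 2.31 CPM at T1 and 9.1, 7.01, 7.08 and 7.13 CPM at T2 (log2 fold change 1.46, SE 0.26, adjusted p 0.0215). aldocb, the glycolytic enzyme aldolase C, rose from 27.2, 22.9, 27.8 and 37.9 CPM to 62.4, 75.5, 111 and 67.9 CPM (1.46, SE 0.21, adjusted p 0.0118). htr3a, a serotonin-gated channel, was at most 0.337 CPM at T1 and at least 0.578 CPM at T2 (2.77, SE 0.53, adjusted p 0.0252), and cspg4, a proteoglycan of pericytes and glial progenitors in mammals, rose by 1.71 (SE 0.34, adjusted p 0.0272). The calls of egfra and htr3a were lost without 2 and 3 of the libraries, that of aldocb without T1 replicate 1 alone, and that of cspg4 without 5.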
